A study of Homo sapiens with 4 samples.

Results

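The genes described here are 8 genes of the endoplasmic reticulum (ER) chaperone system and of its XBP1 control axis: CALR, CANX, XBP1, ERN1, MANF, CRELD2, HYOU1 and SDF2L1. They were chosen by gene symbol, with earlier results of the same contrast known, and all 8 have at least 1 named probe set among the 14884 genes named on the array. For each gene the brightest probe set, by its mean on the 4 arrays, is used, and all 8 lay above the filter on dim genes, among the 11883 genes tested. Affymetrix Human Gene 2.0 ST arrays were used to read RNA levels in SH-SY5Y, a human neuroblastoma line of sympathetic lineage. Origamicin, which the submitters describe as an inhibitor of protein disulfide isomerase, was given at 30 µM for 24 h to the cells of 2 arrays, and the solvent methanol for the same 24 h to those of 2 mock arrays. The arrays are labelled as biological replicates, with no mention of separate cultures or days, so errors measure the spread between these arrays, which may be technical.

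Proteins that enter the ER are folded by chaperones, and the unfolded protein response (UPR) adjusts the supply of these chaperones. It has 3 sensors in the ER membrane. IRE1, the product of ERN1, cuts a short intron out of the XBP1 mRNA, which then encodes the active transcription factor XBP1s. ATF6 is cleaved to release a transcription factor, and PERK (EIF2AK3) slows translation and favours ATF4 and CHOP (DDIT3). XBP1s and ATF6 act on chaperone genes through short promoter elements, among them the ER stress response elements ERSE and ERSE-II and the UPR element UPRE. Calreticulin (CALR) and calnexin (CANX) are lectin chaperones that hold glycoproteins while they fold. HYOU1 is a large relative of HSP70 that helps recycle the ER chaperone BiP, SDF2L1 works with BiP and its J-domain partners, and MANF and CRELD2 are small ER proteins that can be secreted.

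The promoters of 6 of the 8 genes are shown because each holds an exact match to at least 1 of these elements. The windows run from 250 bases before to 50 bases after an annotated start of transcription (RefSeq, GRCh38.p14), 5′ to 3′ on the strand of the gene. All 8 genes matched the RefSeq promoter table by symbol, with 12 windows in all because CANX has 4 annotated starts and XBP1 has 2. The searches were for ERSE (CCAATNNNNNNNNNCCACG), ERSE-II (ATTGGNCCACG) and UPRE (TGACGTGG) on both strands, and capitals mark their fixed letters. The windows are CALR at chr19:12938359-12938658 (plus strand), CANX at chr5:179698679-179698978 (plus), XBP1 at chr22:28800520-28800819 (minus), CRELD2 at chr22:49918384-49918683 (plus), HYOU1 at chr11:119057156-119057455 (minus) and SDF2L1 at chr22:21642052-21642351 (plus).
CALR: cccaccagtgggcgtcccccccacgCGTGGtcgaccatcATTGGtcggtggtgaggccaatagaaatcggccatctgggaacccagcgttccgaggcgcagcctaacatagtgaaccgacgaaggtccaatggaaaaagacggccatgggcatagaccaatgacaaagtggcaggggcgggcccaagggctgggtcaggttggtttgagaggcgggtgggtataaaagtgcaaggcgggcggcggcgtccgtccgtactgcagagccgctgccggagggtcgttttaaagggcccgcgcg
CANX: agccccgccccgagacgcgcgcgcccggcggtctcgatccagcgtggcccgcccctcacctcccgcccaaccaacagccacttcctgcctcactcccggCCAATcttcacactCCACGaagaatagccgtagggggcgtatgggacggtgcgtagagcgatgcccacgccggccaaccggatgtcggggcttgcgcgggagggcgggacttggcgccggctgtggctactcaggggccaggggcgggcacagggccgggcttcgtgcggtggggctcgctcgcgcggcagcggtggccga
XBP1: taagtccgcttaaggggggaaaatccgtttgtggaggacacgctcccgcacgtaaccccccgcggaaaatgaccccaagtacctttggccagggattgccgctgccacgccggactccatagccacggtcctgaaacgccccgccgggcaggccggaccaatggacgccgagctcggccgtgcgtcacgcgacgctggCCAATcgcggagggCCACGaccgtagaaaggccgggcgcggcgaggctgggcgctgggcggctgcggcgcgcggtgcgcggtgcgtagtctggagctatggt
CRELD2: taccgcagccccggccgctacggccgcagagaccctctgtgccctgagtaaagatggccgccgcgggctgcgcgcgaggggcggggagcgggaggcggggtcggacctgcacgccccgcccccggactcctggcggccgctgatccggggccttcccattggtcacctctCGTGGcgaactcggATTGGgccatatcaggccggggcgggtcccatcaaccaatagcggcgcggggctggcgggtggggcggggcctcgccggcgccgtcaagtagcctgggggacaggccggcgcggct
HYOU1: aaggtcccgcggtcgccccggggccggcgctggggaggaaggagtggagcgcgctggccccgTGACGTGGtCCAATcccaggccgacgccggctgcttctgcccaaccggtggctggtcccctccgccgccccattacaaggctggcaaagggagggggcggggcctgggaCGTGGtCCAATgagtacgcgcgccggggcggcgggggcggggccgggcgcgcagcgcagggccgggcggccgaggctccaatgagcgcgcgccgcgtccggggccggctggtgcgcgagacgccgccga
SDF2L1: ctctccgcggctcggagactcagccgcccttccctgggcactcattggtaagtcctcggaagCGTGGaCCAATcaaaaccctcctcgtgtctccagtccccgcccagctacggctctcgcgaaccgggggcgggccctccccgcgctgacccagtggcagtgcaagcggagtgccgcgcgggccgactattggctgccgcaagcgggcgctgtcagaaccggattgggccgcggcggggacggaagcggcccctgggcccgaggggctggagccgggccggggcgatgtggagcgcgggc

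An exact ERSE was present in 27 of the 35116 promoter windows in the table (0.0769%), which belong to 25 of 27305 genes. CALR, CANX, XBP1 and CRELD2 were 4 of those 25 genes. The ERSE of CALR, at positions -225 to -207 from the start of transcription, and that of CRELD2, at -80 to -62, read on the opposite strand. The ERSE of XBP1 lay at -52 to -34, and that of CANX at -151 to -133 in the window shown. The same CANX match fell inside 3 of the 4 CANX windows, and the other XBP1 window held no match. ERSE-II was present in 19 of the 35116 windows (0.0541%), and HYOU1 held 2 matches, at -185 to -175 and -79 to -69, and SDF2L1 held 1, at -188 to -178. UPRE was present in 256 windows (0.729%), and its match in HYOU1, at -188 to -181, overlapped the upstream ERSE-II. ERN1 and MANF held none of the 3 elements in these windows, which says nothing of sequence elsewhere in those genes. The elements were described from promoters of ER chaperone genes, so their presence here is background and not a result of the arrays.

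**Figure D1:**
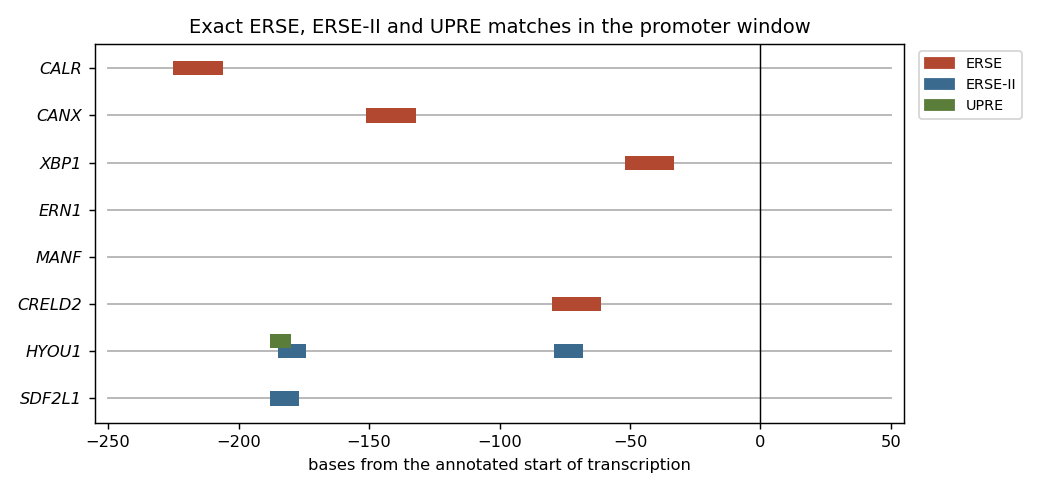
Exact matches to ERSE, ERSE-II and UPRE in the promoter windows of the 8 genes, with the distance in bases from the annotated start of transcription on the horizontal axis and 1 line per gene. For CANX and XBP1 the window printed in the text is drawn. CALR, CANX, XBP1 and CRELD2 each hold 1 ERSE, HYOU1 holds 2 ERSE-II matches and an overlapping UPRE (drawn raised), SDF2L1 holds 1 ERSE-II, and ERN1 and MANF hold none.

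Across the whole table the arrays were on a like scale. RMA, the processing named by the submitters, aligns arrays, so their medians do not measure how many genes differ. The deposited log2 values had array medians from 4.374 to 4.419, arrays correlated at 0.994 and 0.9947 within groups and at 0.9909 to 0.9917 between groups, and the median log2 difference over the 11883 genes was -0.01. No gene passed an adjusted p of 0.05 in the limma fit, while 1950 had an unadjusted p under 0.05 and 511 passed in a limma fit whose prior variance follows the intensity. Lists of cell type markers were also read: all 14 named noradrenergic markers of 19 were above the filter, including DBH and PHOX2A. Passing the filter does not identify the line, since 11883 of 14884 named genes did so. TH, of the same list, stood at 5.64 and 5.69 on the origamicin arrays and 5.52 and 5.82 on the mock arrays. The mean log2 level of the 14 markers was 9.56 and 9.58 on the origamicin arrays and 9.75 and 9.81 on the mock arrays. Their log2 summed levels were 14.42 and 14.42 against 14.57 and 14.59. CHGA, CHGB and DDC, which encode a pair of granins and the enzyme that makes dopamine, had the smallest p of that list, at -0.80 ± 0.09, -0.76 ± 0.08 and -0.59 ± 0.06 (log2 difference ± SE). Over the 14 markers 7 were lower and 1 was higher at an unadjusted p under 0.05 (8.42% and 7.99% of all genes). Of 16 mesenchymal markers, 11 of 12 named were above the filter, with a mean level of 6.76 and 6.68 on the origamicin arrays and 6.54 and 6.55 on the mock arrays, and log2 summed levels of 11.05 and 10.99 against 10.84 and 10.81. FOSL1 (0.76 ± 0.07), VIM (0.45 ± 0.07) and FN1 (0.37 ± 0.08) led them. At an unadjusted p under 0.05 in limma 4 were higher and 0 lower (7.99% and 8.42% of all genes). Of the 11, 8 were higher and 3 lower: NOTCH3 (-0.20 ± 0.09), LOXL2 (-0.09 ± 0.15) and TWIST1 (-0.05 ± 0.07). Glial markers were low, with 6 of 7 named genes above the filter. The mean of these 6 was 4.66 and 4.76 on the origamicin arrays and 4.65 and 4.68 on the mock arrays. Log2 summed levels were 7.43 and 7.56 against 7.38 and 7.44. Of the 6 glial markers 0 had an unadjusted p under 0.05 in limma, where 16.4% of all genes did. GFAP (0.23 ± 0.16), FOXD3 (-0.18 ± 0.12) and ERBB3 (0.16 ± 0.12) had the smallest p among them, and each of these 3 moved by over 1.5 times when 1 array was left out. In bulk RNA, fewer cells of a type and less RNA per cell cannot be told apart, and the part of these marker shifts in the values below was not tested.

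All 8 genes were higher on both origamicin arrays than on both mock arrays, by small amounts: 1.12-fold to 1.27-fold. The median log2 difference, origamicin minus mock, was 0.28 over the 8 genes and -0.01 over all genes tested. A separation of this kind, with both origamicin arrays higher, was found for 22.7% of the 11883 genes, and 47.8% of genes had a difference above 0. The 8 genes were picked with these differences known, so their direction and counts are a description and nothing is read from the comparison with the background. An exact two-sided permutation test of 2 arrays against 2 cannot give a p below 0.333.

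Calreticulin and calnexin, the lectin pair that binds newly made glycoproteins, were measured on bright probe sets. CALR stood at 12.13 and 12.03 on the origamicin arrays, against 11.72 and 11.75 on the mock arrays (log2 expression). Its lowest origamicin array was 0.28 above its highest mock array, a gap wider than the spread inside either group (0.10 among origamicin arrays, 0.03 among mock arrays). The difference was 0.34 ± 0.07 (moderated SE from limma, here and below, n = 2 per group), or 1.27-fold, the largest of the 8. CANX stood at 11.00 and 11.00 on the origamicin arrays, against 10.73 and 10.75 on the mock arrays. These groups were the tightest of the 8, with the origamicin arrays 0.0018 apart and the mock arrays 0.02 apart, and the difference was 0.26 ± 0.06 or 1.20-fold.

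XBP1 and ERN1 form the control axis, the transcription factor and the RNase that splices its mRNA. XBP1 stood at 8.33 and 8.30 on the origamicin arrays, against 8.03 and 7.95 on the mock arrays. The arrays of each group lay within 0.08 of each other and the gap between groups was 0.27. The difference was 0.33 ± 0.07 or 1.25-fold. The table gives 1 summary value for XBP1, which does not separate the spliced from the unspliced mRNA, so splicing was not measured here. ERN1 stood at 6.12 and 6.29 on the origamicin arrays, against 5.85 and 6.05 on the mock arrays. Its groups were only 0.06 apart, less than the spread inside them (0.17 among origamicin arrays and 0.20 among mock arrays). The difference of 0.25 ± 0.11 (1.19-fold) had the largest SE of the 8 genes. It was 0.15 without mock replicate 1, 0.16 without origamicin replicate 2, 0.33 without origamicin replicate 1 and 0.35 without mock replicate 2.

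MANF and CRELD2, small ER proteins that are released under stress, had similar differences on dimmer probe sets. MANF stood at 6.30 and 6.18 on the origamicin arrays, against 5.98 and 5.88 on the mock arrays, a difference of 0.31 ± 0.08 or 1.24-fold. The gap between its groups (0.21) exceeded the spread inside each (0.12 among origamicin arrays, 0.10 among mock arrays). CRELD2 stood at 6.49 and 6.41 on the origamicin arrays, against 6.05 and 6.24 on the mock arrays, a difference of 0.30 ± 0.09 or 1.23-fold. For CRELD2 the gap of 0.17 was smaller than the distance between its mock arrays (0.19).

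HYOU1 and SDF2L1, partners of BiP, had the smallest differences. HYOU1 stood at 9.50 and 9.41 on the origamicin arrays, against 9.30 and 9.24 on the mock arrays, a difference of 0.18 ± 0.07 or 1.13-fold. It is the only 1 of the 8 with another named probe set. That dimmer probe set read 5.40 and 5.52 on the origamicin arrays, against 5.46 and 5.43 on the mock arrays, so its groups overlapped and its difference was 0.02. The probe sets of HYOU1 thus disagree, and the mean of both gave 0.10. SDF2L1 stood at 6.43 and 6.47 on the origamicin arrays, against 6.24 and 6.34 on the mock arrays. Its gap of 0.09 was smaller than the distance between its mock arrays (0.10), and the difference was 0.16 ± 0.07 or 1.12-fold.

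**Figure D2:**
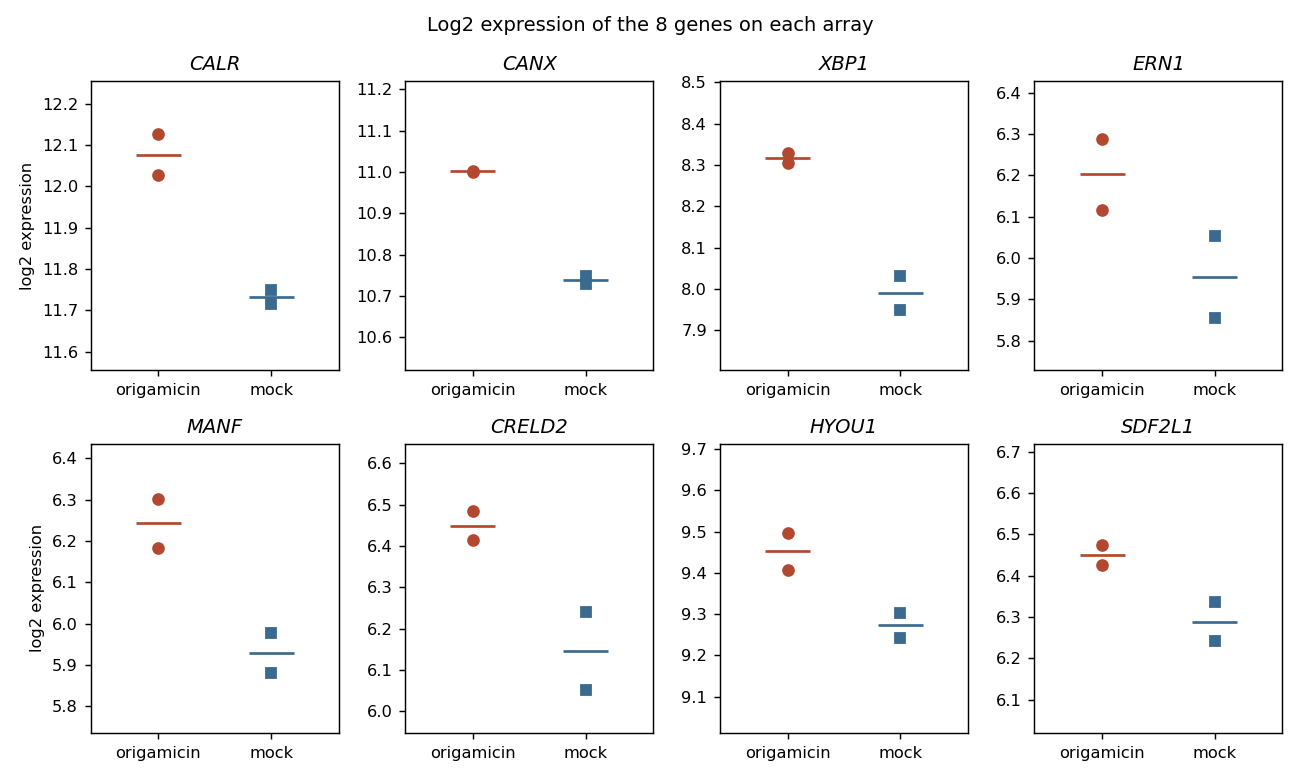
Log2 expression (vertical axis, the same span in each panel) of the 8 genes on the 2 origamicin and the 2 mock arrays, with a point per array and a line at each group's mean. Both origamicin points lie above both mock points in every panel, closest for ERN1, where the groups are 0.06 apart.

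Set in pairs, each origamicin array was above each mock array for all 8 genes, in 32 of 32 comparisons. These share arrays, are not independent and only restate that the groups do not overlap. The median difference over the 8 genes was 0.29 and 0.26 for origamicin replicate 1 over mock replicates 1 and 2, and 0.27 and 0.24 for origamicin replicate 2. For the same pairs the median over all genes lay between -0.0135 and -0.00245. In the limma fit 0 of the 8 passed an adjusted p of 0.05 (0% of all genes did so in either direction), and 5 of 8 (CALR, CANX, XBP1, MANF and CRELD2) had an unadjusted p under 0.05, as did 7.99% of all genes on the higher side. With an intensity trend in the prior variance 3 of 8 (CALR, CANX and XBP1) passed an adjusted p of 0.05, where 2.14% of all genes did so on the higher side and 4.3% in either direction. The differences were moderate against the whole table: 3.64% of the genes tested had a larger difference than CALR and 15.6% a larger one than SDF2L1, within a range over all genes from -1.47 to 1.83.

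**Figure D3:**
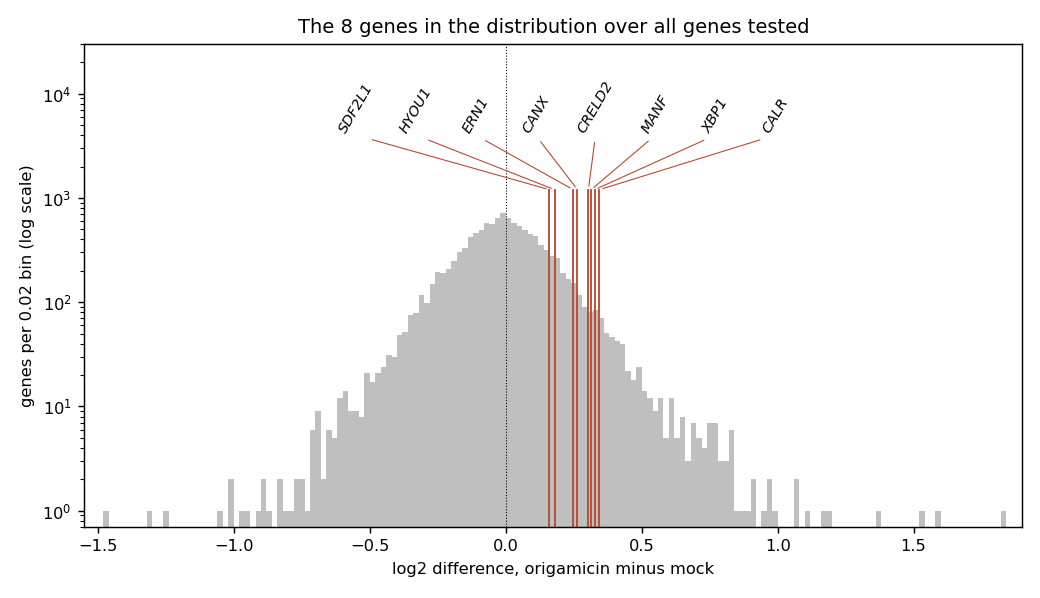
Histogram of the log2 difference, origamicin minus mock, over the 11883 genes tested (bins of 0.02, log scale for the number of genes), with red lines at the 8 genes. The lines lie between 0.16 (SDF2L1) and 0.34 (CALR), well inside the range over all genes, -1.47 to 1.83.

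Relatives of these genes, proteins of the same family, were also on the array. Calmegin (CLGN), a calnexin relative best known from the testis, stood at 8.82 and 8.90 on the origamicin arrays, against 8.75 and 8.90 on the mock arrays, a difference of 0.04 ± 0.08. CRELD1, the relative of CRELD2, was at 0.05 ± 0.06 and SDF2, the relative of SDF2L1, at 0.10 ± 0.11. Without mock replicate 1 SDF2 was at 0.21, above the 0.11 of SDF2L1. CDNF, the relative of MANF, stood at 4.76 and 5.15 on the origamicin arrays, against 5.29 and 5.03 on the mock arrays, a difference of -0.20 ± 0.17 in which the groups overlapped. It ran from -0.39 without origamicin replicate 2 and -0.33 without mock replicate 2 to -0.07 without mock replicate 1 and -0.0019 without origamicin replicate 1. ERN2, the epithelial relative of ERN1, was at -0.04 ± 0.15 on a dim probe set. CALR3 was below the filter and was not tested. None of the 5 tested relatives had an unadjusted p under 0.05 in limma, where 16.4% of all genes did. None passed with an intensity trend, where 4.3% of all genes did, so these counts do not set the relatives apart. The difference between a gene and its relative was not tested.

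Of the other sensors, PERK (EIF2AK3) stood at 7.62 and 7.63 on the origamicin arrays, against 7.22 and 7.17 on the mock arrays. These groups were well apart, with a difference of 0.43 ± 0.06 or 1.35-fold, where the largest of the 8 genes was 1.27-fold. It had a limma adjusted p of 0.151, short of the threshold, and passed with an intensity trend (limma adjusted p = 0.0179). ATF6 was at 0.07 ± 0.07 and its relative ATF6B at 0.03 ± 0.06, both far from the threshold (adjusted p = 0.686 and 0.870 in limma). ATF4, the factor downstream of PERK, stood at -0.07 ± 0.06 (95% interval -0.24 to 0.10). DDIT3, which encodes CHOP, stood at 4.90 and 5.55 on the origamicin arrays, against 4.26 and 4.64 on the mock arrays. Both groups vary by more than those of the 8 genes, and the difference of 0.77 ± 0.26 had a limma adjusted p of 0.272. It was 0.45 without origamicin replicate 2 and 1.095 without origamicin replicate 1.

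**Figure D4:**
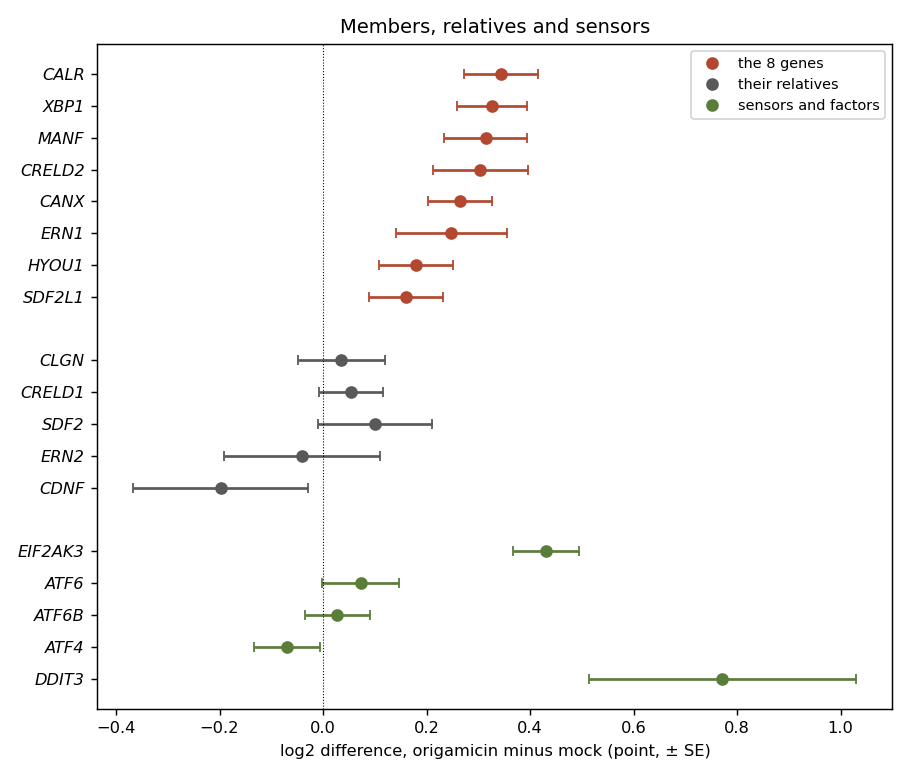
Log2 difference, origamicin minus mock (point), with its moderated SE (bar, 2 arrays per group), for the 8 genes, for 5 relatives and for 5 sensors and factors of the unfolded protein response. The 8 genes lie between 0.16 and 0.34, the relatives between -0.20 and 0.10, and PERK (EIF2AK3) at 0.43.

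Other genes of the ER and the UPR were taken from 7 lists written from pathway knowledge. Together they hold 136 genes apart from the 8, of which 68 were named on the array and 67 tested. Of the 67, 41 were higher and 26 lower, with a median of 0.04, against 47.8% higher and a median of -0.01 over all genes. None passed an adjusted p of 0.05 in the limma fit, 11 were higher and 5 lower at an unadjusted p under 0.05 (7.99% and 8.42% of all genes), and 5 rose and 2 fell with an intensity trend (2.14% and 2.16% of all genes). Both origamicin arrays were above both mock arrays for 25 of the 67, and below for 12, where 22.7% and 25.8% of all genes were. HSPA5, HSP90B1, DNAJB9, DNAJC3, EDEM1 and HERPUD1, textbook targets of XBP1 or ATF6, are not among the named probe sets and were not analysed here.

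The list closest in function to CALR and CANX is the calnexin and calreticulin cycle, in which glucosidases and a glucosyltransferase set how long a glycoprotein stays bound. Of its 9 tested genes 7 were higher, with a median of 0.11, where 47.8% of all genes were higher. At an unadjusted p under 0.05 in limma 2 were higher (7.99% of all genes), and 1 rose with an intensity trend (2.14%). That gene was PRKCSH, the β subunit of glucosidase II, which trims glucose so that glycans can bind both lectins. PRKCSH stood at 11.50 and 11.44 on the origamicin arrays, against 11.18 and 11.15 on the mock arrays, a difference of 0.31 ± 0.07 (limma adjusted p = 0.177, and 0.0148 with the trend). TAPBP, which encodes tapasin, the partner of calreticulin in loading peptides on MHC class I, was at 0.29 ± 0.08 (adjusted p = 0.216). MLEC, the glucose-binding lectin malectin, was at 0.21 ± 0.09 (adjusted p = 0.358), at 0.12 without mock replicate 1 and at 0.10 with the mean of its probe sets. Among 10 tested ER chaperones and co-chaperones 7 were higher (47.8% of all genes were), with a median of 0.04. The cyclophilin PPIC was the only 1 past an unadjusted p of 0.05 in limma, at 0.20 ± 0.07 (adjusted p = 0.274), and none passed with an intensity trend. The related cyclophilin PPIB was at 0.17 ± 0.08 (0.10 without origamicin replicate 1) and the prolyl isomerase FKBP7 at -0.10 ± 0.08.

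Known targets of XBP1 and ATF6 other than the 8 genes went both ways. Of 13 tested, 7 were higher and 6 lower, with a median of 0.07, where 47.8% of all genes were higher. At an unadjusted p under 0.05 in limma 1 was higher and 1 lower (7.99% and 8.42% of all genes), and none passed with an intensity trend. SPCS3, a subunit of the signal peptidase, stood at 9.47 and 9.46 on the origamicin arrays, against 9.27 and 9.27 on the mock arrays, a difference of 0.19 ± 0.06 (limma adjusted p = 0.264). Another subunit, SPCS2, was at 0.20 ± 0.09 (adjusted p = 0.354), and at 0.11 without origamicin replicate 1. SERP1, a small protein of the translocon, stood at 6.43 and 6.66 on the origamicin arrays, against 6.84 and 6.80 on the mock arrays, a difference of -0.27 ± 0.10 (adjusted p = 0.291) opposite in sign to the 8 genes. Without origamicin replicate 1 it was -0.16. SEC61B, a subunit of the translocon channel, was at -0.01 ± 0.07.

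Transcripts other than XBP1 that IRE1 has been reported to cut, in human or mouse cells, went both ways. Of 7 tested 4 were higher and 3 lower, with a median of 0.01, where 47.8% of all genes were higher. At an unadjusted p under 0.05 in limma 2 were higher and 1 lower (7.99% and 8.42% of all genes). HGSNAT, a lysosomal acetyltransferase, was at 0.41 ± 0.08 and passed with an intensity trend (adjusted p = 0.174 in the limma fit and 0.0188 with the trend). TAPBP belongs to this list too, and the glypican GPC3 was at -0.21 ± 0.08 (adjusted p = 0.287). Among 14 tested sensors and regulators 10 were higher (47.8% of all genes were), with a median of 0.03. At an unadjusted p under 0.05 in limma 2 of the 14 were higher and 0 lower (7.99% and 8.42% of all genes). BAX, a pro-apoptotic protein reported to bind IRE1 in mouse cells, led them at 0.46 ± 0.06 (adjusted p = 0.128, and 0.00778 with the trend), ahead of EIF2AK3 and CREB3 (0.16 ± 0.07). The PERK and ATF4 arm had 2 of 9 tested genes higher and 7 lower, with a median of -0.08, where 47.8% of all genes were higher. At an unadjusted p under 0.05 in limma 2 of the arm were higher and 3 lower (7.99% and 8.42% of all genes). DDIT4, an inhibitor of mTORC1, was at -1.25 ± 0.09, VLDLR at -0.47 ± 0.07 and STC2 at -0.41 ± 0.08 (adjusted p = 0.0953, 0.149 and 0.174 in limma). With an intensity trend DDIT4 and VLDLR fell and 1 gene of the arm rose, SESN2, named here after its value was seen. In that fit 2.16% of all genes fell and 2.14% rose. ER calcium proteins had 6 of 7 tested genes higher (47.8% of all genes were), with a median of 0.06. At an unadjusted p under 0.05 in limma 2 of them were higher and 0 lower (7.99% and 8.42% of all genes), and none passed with a trend. STIM1, the ER calcium sensor, was at 0.21 ± 0.06, SELENOK at 0.24 ± 0.08 and CALU at 0.09 ± 0.08.

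**Figure D5:**
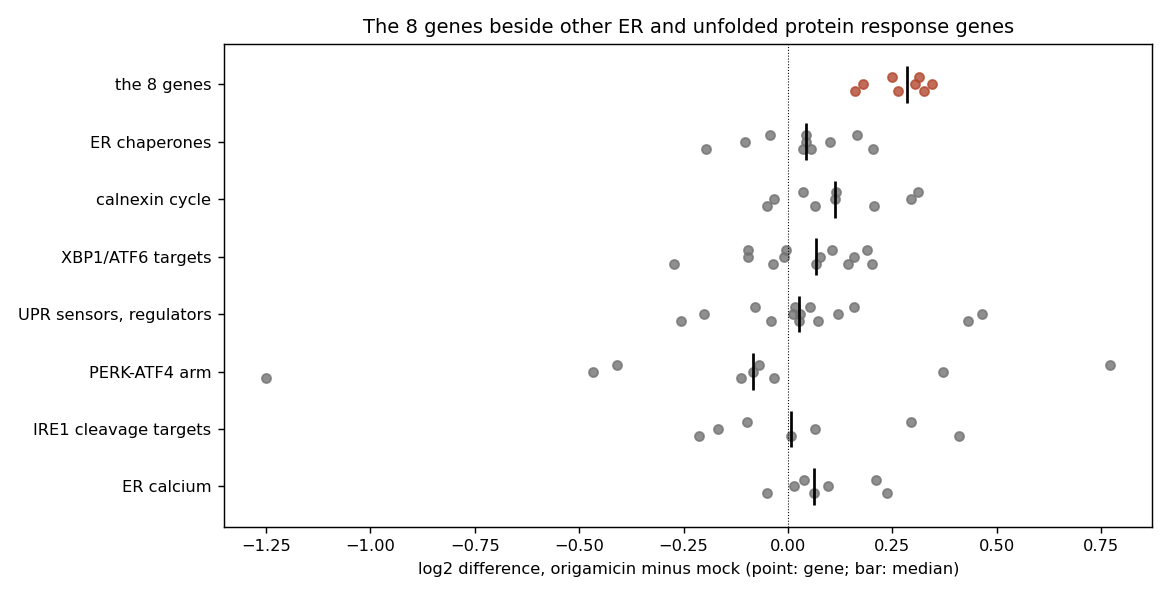
Log2 difference, origamicin minus mock, of each tested gene (point) and the median (bar) for the 8 genes and for the 7 other ER and UPR lists, some genes standing in 2 lists. The list medians lie between -0.08 (PERK and ATF4 arm) and 0.11 (calnexin and calreticulin cycle), and that of the 8 genes, which were chosen with these values known, at 0.28.

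The promoter elements pick genes by sequence, here among the genes above the filter on dim genes. The search was added after the arrays were seen. Outside the 8 genes, 9045 tested genes had a promoter window, with 47.0% higher and a median difference of -0.01. Both origamicin arrays were above both mock arrays for 23.2% of these 9045 genes and below for 27.0%. Only 6 of them held an exact ERSE: 4 were higher, with a median of 0.02. ERO1B, an ER oxidase, was at 0.19 ± 0.07 and the actin-associated SYNPO at 0.20 ± 0.06, with both origamicin arrays above both mock arrays. SERP1, described above, went the other way, and FICD, an enzyme that modifies BiP, was at 0.03 ± 0.11. The remaining ERSE genes were TMEM120A and ZNF17, at 0.0046 ± 0.078 and -0.06 ± 0.08. Of 13 genes with ERSE-II 5 were higher, with a median of -0.02. Both origamicin arrays were above both mock arrays for 4 of these 13 and below for 4 (30.8% each). Of 97 genes with UPRE 52 were higher, with a median of 0.01. For 22.7% of these 97 both origamicin arrays were above both mock arrays, and for 27.8% below.

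Genes whose 4 array values ran most like the mean profile of the 8, each centred on its own mean, were B2M, TCTA, RBM19, RELL1 and SH3GL1P1. Their root mean square distance from that profile over the 4 arrays was 0.00903 to 0.0114 on the log2 scale, against a median of 0.165 over all other genes. B2M, the light chain of MHC class I, stood at 7.95 and 7.94 on the origamicin arrays, against 7.68 and 7.70 on the mock arrays, a difference of 0.25 ± 0.06. With the mean of its probe sets B2M was at 0.16, so the likeness holds for the brightest probe set and was not computed for the others. TCTA was at 0.27 ± 0.07, RBM19, a factor of ribosome assembly, at 0.27 ± 0.06 and RELL1 at 0.27 ± 0.06. SH3GL1P1, at 0.27 ± 0.06, is a pseudogene whose probes may share sequence with its parent gene, so its value is uncertain. Of the 8 genes CANX lay nearest to the mean profile (0.00987, with 3 other genes nearer) and ERN1 farthest (0.0903, with 1480 nearer). Each of the 8 is itself part of that profile, which draws it nearer, so these ranks beside other genes are not a like comparison. This likeness rests on 4 arrays and is a description.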

How the data were processed

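The deposited values are log2 expression, with a value for each probe set on each array. RMA and limma are named, without versions, in the submitters' processing notes, while genome build and annotation were not given in the sources used here. Log2 values ran from 0.574 to 14.46 and were not normalized again. Array signals have no counting depth, and precision is limited by how few arrays there are, while bright probe sets can understate a change.

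Of 53617 probe sets, 16098 had exactly 1 gene in the platform annotation and the other 37519 are unnamed here. Per gene the probe set with the highest mean was kept (14884 genes), and 3001 genes with a mean under 3.822, the 40th percentile over the probe sets, were left out as dim. The groups were tested with lmFit and eBayes of limma 3.58.1 under R 4.3.3 (origamicin minus mock, no covariate), with Benjamini-Hochberg adjustment over 11883 genes. The fit was tested on simulated data.

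The members and lists were chosen with earlier results of these data known, and the promoter search was added after the arrays were seen. Named genes were the 8 members, fixed sensors, factors, relatives and targets, the 3 genes with the smallest p of each list, and the 5 most alike in profile. Alternative settings were leaving out each array, robust eBayes, an intensity trend, averaging a gene's probe sets, quantile normalization, equal array medians, a stricter filter (60th percentile) or none, and the replicate number as a block.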

Additional observations from a re-analysis of the deposited data

How the results depend on the processing

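All 8 genes were higher in origamicin under each of the 12 alternatives, but most of these could not turn the sign. The filters, the block, the trend and robust eBayes leave each difference as it is. Groups that do not overlap keep their sign when 1 array is left out. Only the other scalings and the mean of the probe sets could have turned it. The median log2 difference of the 8 genes was 0.27 to 0.29 with other scalings and 0.23 to 0.30 when 1 array was left out. Genes of the 8 past an adjusted p of 0.05 were 0 in the chosen limma fit and 3 with an intensity trend, and those with an unadjusted p under 0.05 numbered 5, and 3 to 4 when 1 array was left out (3 without origamicin replicate 1 or mock replicate 1). With the replicate number as a block (correlation of the replicate deviations between groups -0.0226, so the numbers are not shown to pair the arrays) 6 of the 8 had an unadjusted p under 0.05, and genes of the 7 lists at that level numbered 10 in place of 16, and 9 to 12 when 1 array was left out, with 9 without origamicin replicate 1 or mock replicate 1. Over all genes 0 passed in the chosen fit, 92 with the filter at the 60th percentile and 511 with an intensity trend, and for the 7 lists these numbers were 0, 2 and 7. An unadjusted p under 0.05 was found for 1950 genes, and for 1261 to 1669 when 1 array was left out (1270 without mock replicate 1, 1261 without mock replicate 2). The strict filter tests 9269 genes in place of 11883, and the cause of the larger number with the trend was not tested. When 1 array was left out the sign turned for CLGN (-0.0401 to 0.111), ERN2 (-0.191 to 0.111), SDF2 (-0.0107 to 0.211) and SEC61B (-0.0454 to 0.0340), and with quantile normalization for SEC61B (0.0013). With the mean of its probe sets HYOU1 was at 0.10.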
